A study of Homo sapiens with 4 samples.

Results

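The transcriptome of untreated TOV21G cells, an established human line of ovarian clear cell carcinoma, was described from 1 library, the control, out of 4 in the series. It was chosen by its treatment label, and all 26255 gene symbols of the deposited table were used. The other 3 cultures received As2O3 (arsenic trioxide) at 1 µM, GSK458 at 0.1 µM, or both, for 48 h, and serve here only to say which highly expressed genes stayed near the control level. GSK458 is an inhibitor of PI3K and mTOR. The control received no drug, and the sources used here do not give its time in culture. All 4 cultures are of this single line, and each group has 1 library, so the values have no replicate error and nothing was tested. RNA was poly(A)-selected and sequenced, and levels are FPKM, fragments per kilobase of transcript per 1000000 mapped fragments. FPKM corrects for transcript length, so levels of different genes were compared on this scale. The table keeps no read counts, and the absolute depth is unknown. In a culture, fewer cells that express a gene and less RNA per cell cannot be told apart.

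Clear cell carcinoma is an ovarian cancer of Müllerian-type epithelium, often linked to endometriosis, whose cells store glycogen. NRF2, encoded by NFE2L2, is held low by KEAP1 and drives genes that detoxify reactive oxygen and electrophiles. PI3K, AKT and mTOR carry signals from growth factor receptors to protein synthesis and the cell cycle.

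Of all symbols 12138 stood at 1 FPKM or more in the control, called detected here, which is 46.2% of them. Another 10064 (38.3%) were listed at 0, and since an exact 0 in FPKM can be a failed estimate, such genes are described as listed at 0. Detected genes had a median of 11.6 FPKM. The 10 highest genes took 9.51% of the FPKM sum, the 100 highest 35.7%, and 286 genes made up 50% of it. The 763 genes at 100 FPKM or more, called high here, were 2.91% of all symbols and took 63.4% of the sum. Within them, 81 genes at 1000 FPKM or more took 32.7%. FPKM sums ran between 543975 in the control and 588892 with GSK458. Small RNA genes, whose short length inflates FPKM, took 0.0778% of the control sum and were left out of ranks. Without them 12108 of 23994 symbols (50.5%) were detected.

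The top of the list was held by the cytoskeleton, translation and iron storage. TMSB10, a thymosin that binds actin monomers, ranked first at 8231 FPKM, and its relative TMSB4X took the third rank at 6319.8 FPKM. ACTB, cytoplasmic actin, stood at 4486 FPKM. GAPDH, the glycolytic dehydrogenase, stood at 4595 FPKM, and EEF1A1, which carries tRNAs to the ribosome, at 5216 FPKM. Of the 20 highest genes, 12 encode ribosomal proteins, led by RPL41 at 7978 FPKM and RPS18, RPS2 and RPS27 at 3613, 3590.3 and 3398 FPKM. Others were RPL37A, RPLP1, RPS4X, RPL12, RPL7, RPL7A and RPL3, between 2391 FPKM for RPL3 and 3045 FPKM for RPL37A. RPL13AP5, annotated as a processed pseudogene of RPL13A, was listed at 3307 FPKM, against 646 FPKM for RPL13A. These share sequence, so the split between them is uncertain, and the same holds for many ribosomal protein, actin, tubulin, GAPDH, EEF1A1 and ferritin values. FTH1, the ferritin heavy chain, ranked seventh at 4300 FPKM. The remaining gene, CD24, encodes a glycosylated surface protein of many carcinomas and stood at 2629.6 FPKM.

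**Figure D1:**
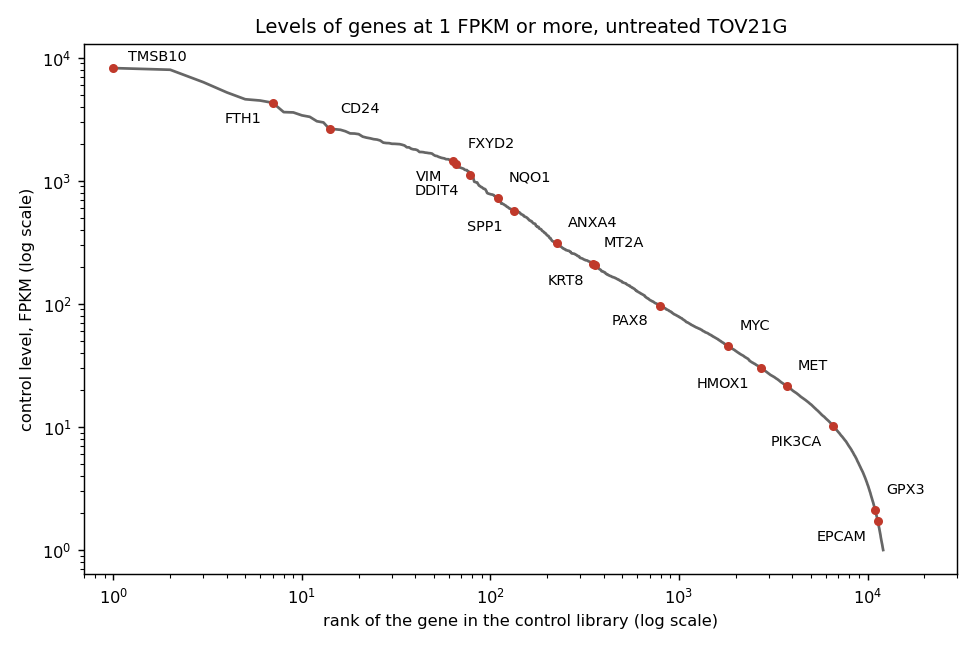
Level in FPKM (y axis, log scale) of each gene detected in the control against its rank (x axis, log scale), without small RNA genes; red points mark named genes. TMSB10 is first at 8231 FPKM, NQO1 is at rank 109 and PIK3CA at rank 6569.

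The starts of genes differed in sequence between level classes. RefSeq promoters (GRCh38.p14) covered 16160 of 23994 symbols that are not small RNAs, and the 12225 with 1 listed start were used, over the 250 bases before it. The ratio of observed to expected CpG dinucleotides had a median of 0.27 in 3854 promoters of genes listed at 0 and 0.56 in 1855 of genes above 0 and under 1 FPKM. It was 0.82 between 1 and 10 FPKM, 0.86 between 10 and 100, 0.88 between 100 and 1000, and 0.92 in the 56 promoters at 1000 FPKM or more. A ratio of 0.6 or more was seen in 23.6% of promoters of genes listed at 0 and in 98.2% of the highest class. The median thus climbed over the classes under 10 FPKM and changed less above them.

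The letters TATAAA, the core of the TATA box, on either strand, were in 1223 of all 12225 promoters. Their share was 19.4% in genes listed at 0, 10.6% above 0 and under 1 FPKM, 4.36% between 1 and 10 FPKM, 3.67% between 10 and 100, 8.31% between 100 and 1000, and 10.7% (6 of 56) at 1000 FPKM or more. The share was thus lowest in the middle classes. Base composition differed too. The median content of G and C bases was 50.4% in genes listed at 0 and 60.8% above 0 and under 1 FPKM. It was 65.2% between 1 and 10 FPKM, 66.0% between 10 and 100, 64.8% between 100 and 1000, and 61.2% at 1000 or more. The letters were counted at any position in the window, and their share was not adjusted for base composition. The letters TGACNNNGC, a core of the element that NRF2 binds, were in 11.8% of all promoters, 10.2% of those of genes listed at 0, 14.7% between 100 and 1000 FPKM and 8.93% (5 of 56) at 1000 or more. The letters CCGGAAG, a core of ETS factor sites added after the values were seen, were in 11.7% of all, 3.06% in genes listed at 0 and 21.4% in the highest class. Motifs were counted on both strands and may overlap CpG dinucleotides. These are descriptions across genes, which are not replicates, and a match is not a bound site.

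**Figure D2:**
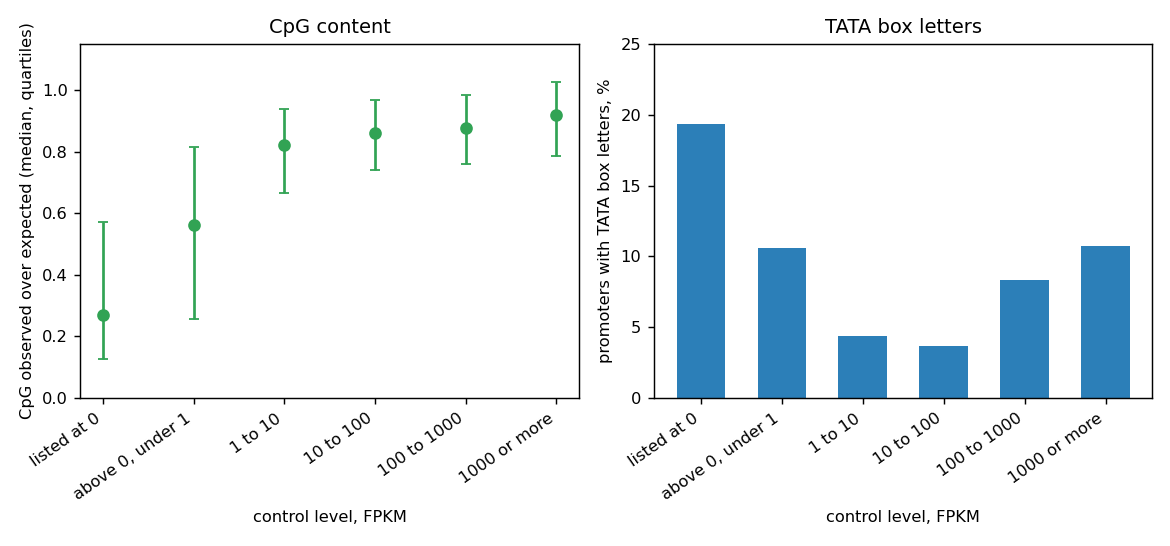
Left, observed over expected CpG in the 250 bases before the start (points: medians; bars: quartiles) by class of control level in FPKM; right, percent of promoters with the TATA box letters. CpG medians go from 0.27 in genes listed at 0 to 0.92 at 1000 FPKM or more. The share with TATAAA letters anywhere in the window, not adjusted for base composition, is highest at 19.4% in genes listed at 0.

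4 promoters show this contrast in letters, on the strand of the gene, ending at the base before the start, with capitals for CpG dinucleotides and for TATAAA. They are the most abundant gene, TMSB10, at 8231 FPKM (31 CpG, chr2:84905406-84905655 on the + strand), the metal-binding MT2A at 212 FPKM (32 CpG, chr16:56608334-56608583, + strand), the secreted clear cell marker SPP1 at 571 FPKM (3 CpG, chr4:87975464-87975713, + strand) and IVL, a cornified envelope protein of squamous epithelium listed at 0 (0 CpG, chr1:152908296-152908545, + strand), all in GRCh38.p14.
TMSB10: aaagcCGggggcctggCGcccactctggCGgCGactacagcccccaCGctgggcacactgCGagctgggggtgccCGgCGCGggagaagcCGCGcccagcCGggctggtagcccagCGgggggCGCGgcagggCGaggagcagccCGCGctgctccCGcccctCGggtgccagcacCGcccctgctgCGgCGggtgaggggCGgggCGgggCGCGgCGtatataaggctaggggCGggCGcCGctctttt
MT2A: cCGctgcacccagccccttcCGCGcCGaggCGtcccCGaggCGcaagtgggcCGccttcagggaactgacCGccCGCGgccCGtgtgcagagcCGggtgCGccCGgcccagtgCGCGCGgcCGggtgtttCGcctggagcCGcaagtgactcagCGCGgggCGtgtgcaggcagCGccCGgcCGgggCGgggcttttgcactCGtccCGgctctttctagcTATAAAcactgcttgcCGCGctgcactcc
SPP1: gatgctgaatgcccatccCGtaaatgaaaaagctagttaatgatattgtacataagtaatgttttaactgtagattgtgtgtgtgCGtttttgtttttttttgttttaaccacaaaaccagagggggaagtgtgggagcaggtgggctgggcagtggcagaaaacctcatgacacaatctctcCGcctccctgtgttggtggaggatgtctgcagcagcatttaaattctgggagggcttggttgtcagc
IVL: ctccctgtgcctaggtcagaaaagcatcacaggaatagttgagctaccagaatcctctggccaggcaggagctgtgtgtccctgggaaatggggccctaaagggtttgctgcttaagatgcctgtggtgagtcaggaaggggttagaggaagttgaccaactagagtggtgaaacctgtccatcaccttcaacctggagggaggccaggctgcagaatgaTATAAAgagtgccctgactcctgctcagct
TATAAA begins 29 bases before the start in MT2A and 30 bases before it in IVL, so a high gene and a gene listed at 0 both carry it. TMSB10 and SPP1 have no exact match to these letters in the window. SPP1 is highly expressed with few CpG dinucleotides, against the direction of the class medians.

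The epithelial identity of the control was partial. Of 24 markers of simple epithelium, 17 were detected (46.2% of all symbols were) and 3 were high (2.91% of all symbols). The keratin pair of simple epithelium led them, KRT8 at 206 FPKM and KRT18 at 166 FPKM. JUP, the junction protein plakoglobin, stood at 111 FPKM and ELF3, an epithelial transcription factor, at 59.6 FPKM. The median of the list was 2.51 FPKM, and several defining genes were at its foot. EPCAM, the epithelial adhesion molecule, stood at 1.71 FPKM and KRT7, a keratin of Müllerian epithelium, at 2.25 FPKM. CDH1, E-cadherin, stood at 0.0162 FPKM with As2O3, 0.115 with GSK458, 0.0545 with both drugs and 0.218 in the control. It was under 1 FPKM in each library. KRT19 and CLDN4 were likewise at 0.397 and 0.221 FPKM in the control, and the splicing and transcription factors ESRP1 and GRHL2 and the GTPase RAB25 were listed at 0. KRT8 stood at 214 FPKM with As2O3, 181 with GSK458, 168 with both drugs and 206 in the control. KRT18 stood at 239.8 FPKM with As2O3, 239 with GSK458, 241 with both drugs and 166 in the control, with the 3 drug-treated cultures close to each other and above the control.

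Some mesenchymal genes stood near the top of the table. VIM, the intermediate filament vimentin, ranked 63 and stood at 1889.7 FPKM with As2O3, 2818 with GSK458, 2761 with both drugs and 1434 in the control. S100A4, a calcium-binding protein of motile cells, stood at 705 FPKM, SPARC, a matrix glycoprotein, at 321 FPKM, and ACTA2, smooth muscle actin, at 30.8 FPKM. Of 13 genes in the list 9 were detected and 3 high, with a median of 2.50 FPKM. The repressor of epithelial genes ZEB1 stood at 8.32 FPKM, while CDH2, N-cadherin, was at 0.0197 FPKM and SNAI2 and TWIST2 were listed at 0. The culture thus held KRT8, KRT18 and VIM together, with both cadherins under 1 FPKM. Lower members named here and below were singled out after their values were seen.

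Clear cell carcinoma markers were largely present. Of 14 markers 12 were detected (46.2% of all symbols were) and 3 high (2.91% of all symbols). The median of all 14, undetected members included, was 29.0 FPKM, while that of detected genes only was 11.6 FPKM. FXYD2, a regulatory subunit of the sodium pump, ranked 66, at 589 FPKM with As2O3, 698 with GSK458, 635 with both drugs and 1367 in the control. The control was the highest of the 4. SPP1, the secreted phosphoprotein osteopontin, stood at 1308 FPKM with As2O3, 761 with GSK458, 1947 with both drugs and 571 in the control, lowest in the control. ANXA4, an annexin raised in clear cell tumours, stood at 156 FPKM with As2O3, 297 with GSK458, 287 with both drugs and 309.6 in the control. Other members in the control were the matrix proteoglycan VCAN at 64.5 FPKM, the cytokine IL6 at 32.9 FPKM and the receptor MET at 21.4 FPKM. GPX3, a secreted glutathione peroxidase, was low at 2.12 FPKM in the control, and NAPSA, the protease napsin A used in diagnosis of this cancer, stood at 0.815 FPKM with As2O3, 1.06 with GSK458, 1.06 with both drugs and 0.665 in the control. DPP4 was at 0.389 FPKM.

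Of 16 Müllerian and ovarian epithelial genes, 6 were detected, a lower share than the 46.2% of all symbols. None was high (2.91% of all symbols were), and the median of the list was 0.0852 FPKM. PAX8, the paired-box factor of Müllerian epithelium, stood at 149 FPKM with As2O3, 83.6 with GSK458, 88.7 with both drugs and 96.8 in the control, highest with As2O3. Its relative PAX2 stood at 30.7 FPKM in the control. The homeobox genes of the uterine and tubal tract HOXA9 and HOXA10 stood at 51.2 and 47.3 FPKM, and HOXA11 at 4.43 FPKM. The hormone receptors ESR1 and PGR were listed at 0 in the control. WT1, a marker of serous tumours, was at 0.0646 FPKM, and MUC16, which carries the CA125 antigen, at 0.0214 FPKM. Set against the label, the culture expressed the Müllerian factor PAX8 and the clear cell markers FXYD2, SPP1 and ANXA4, while NAPSA was under 1 FPKM.

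**Figure D3:**
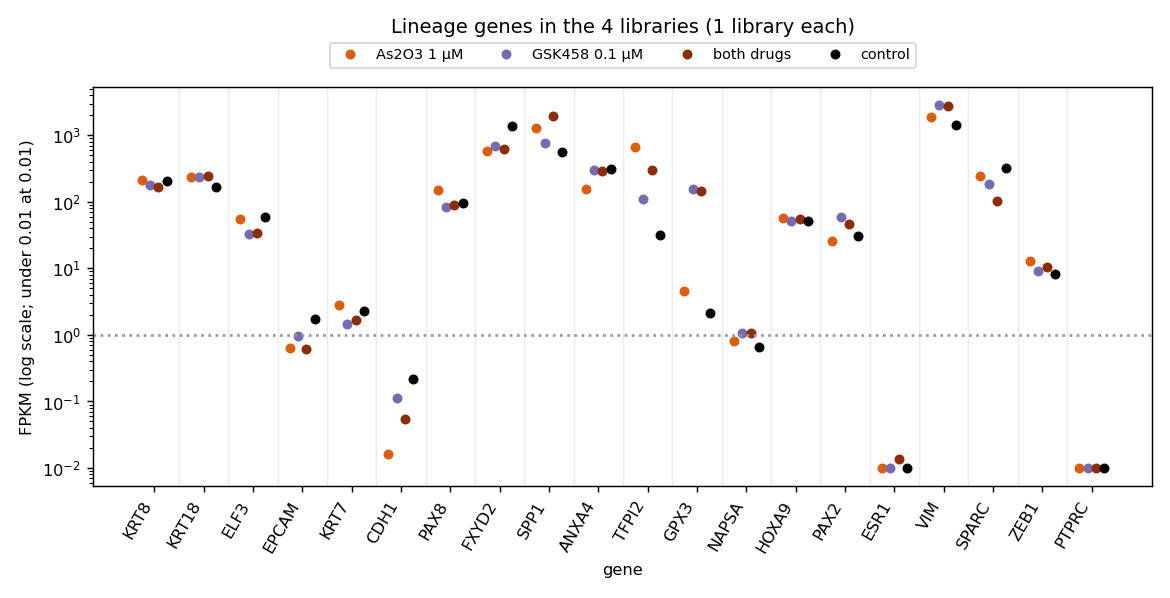
FPKM (y axis, log scale) of 20 lineage genes in the 4 libraries, 1 point per library; values under 0.01 are drawn at 0.01. PAX8 lies above 80 FPKM in each library, while CDH1 and PTPRC lie under 1 FPKM in each.

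Most genes of other cell types stood under 1 FPKM, with exceptions such as SFN. None of 16 immune markers was detected (2 where each library is rescaled to a sum of 1000000), the highest being CD68 at 0.782 FPKM, FCER1G at 0.739 FPKM, NKG7 at 0.346 FPKM and CD14 at 0.163 FPKM, and the pan-leukocyte gene PTPRC was listed at 0. Their summed level was 2.33 FPKM in the control. Of 11 endothelial markers 1 was detected, the TGF-beta co-receptor ENG at 8.25 FPKM, and CDH5, VWF and KDR were listed at 0. Of 12 fibroblast markers 2 were detected, the collagen chains COL1A1 at 2.65 FPKM and COL1A2 at 1.45 FPKM, while DCN, LUM and COL3A1 were listed at 0. Of 13 genes of stratified epithelium 1 was detected, the 14-3-3 protein SFN at 105 FPKM, and KRT5, KRT14 and KRT6A were listed at 0. SFN stood at 71.7 FPKM with As2O3, 45.6 with GSK458, 46.7 with both drugs and 105 in the control. TP63, the master factor of squamous epithelium, was at 0.0164 FPKM. Mesothelial genes gave 2 of 7, MSLN at 4.30 FPKM and BNC1 at 1.42 FPKM, and CALB2 was listed at 0.

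Liver-type genes gave 3 of 16 detected. The fibrinogen chains FGB and FGA stood at 87.1 and 21.5 FPKM, while the gamma chain FGG was at 0.641 FPKM. APOA2 was at 0.796 FPKM, and HNF4A, FOXA2, AFP and TTR were listed at 0. FGB stood at 36.6 FPKM with As2O3, 15.1 with GSK458, 12.2 with both drugs and 87.1 in the control, highest in the control. Of 9 pluripotency and germ cell genes 2 were detected, LIN28A, which blocks let-7 microRNA maturation, at 10.5 FPKM, and POU5F1 at 2.25 FPKM. POU5F1 has expressed pseudogenes, and its value is uncertain. LIN28A stood at 5.31 FPKM with As2O3, 2.26 with GSK458, 1.89 with both drugs and 10.5 in the control, again highest in the control. NANOG was at 0.0388 FPKM and SOX2 was listed at 0.

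Energy metabolism was strongly represented. All 22 glycolytic genes were detected and 11 were high, against 46.2% and 2.91% of all symbols. The same shares of all symbols apply to the detected and high counts of the lists below. The glycolytic genes had a median of 125 FPKM and together took 2.36% of the FPKM sum. After GAPDH came the lactate dehydrogenase subunit LDHB at 1283 FPKM, the enolase ENO1 at 1252 FPKM and the aldolase ALDOA at 1220.3 FPKM. Within the pathway the levels were uneven: the glucose transporters SLC2A1 and SLC2A3 stood at 15.0 and 7.95 FPKM, and HK2 was the lowest at 6.78 FPKM, against 91.9 FPKM for its relative HK1. All 39 nuclear-encoded subunits of oxidative phosphorylation were detected and 28 were high, with a median of 198 FPKM and 2.01% of the sum, led by COX7C at 938 FPKM, ATP5B at 774 FPKM and COX6A1 at 752 FPKM. Citric acid cycle enzymes were all detected (22 of 22) with a median of 52.5 FPKM, led by MDH1 at 164, IDH2 at 148, CS at 136 and MDH2 at 95.2 FPKM, and PC, pyruvate carboxylase, was lowest at 3.17 FPKM. Transcripts encoded by mitochondrial DNA were not analysed here.

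Glycogen enzymes, of interest because clear cells store glycogen, were detected in 11 of 14 genes, none of them high. The brain-type phosphorylase PYGB led at 70.7 FPKM, followed by the lysosomal glucosidase GAA at 63.8 FPKM, UGP2, which makes UDP-glucose, at 53.1 FPKM, and PGM1 at 47.2 FPKM. The muscle-type synthase GYS1 stood at 36.7 FPKM, while the liver synthase GYS2 was at 0.0491 FPKM. The liver phosphorylase PYGL stood at 38.2 FPKM and the muscle form PYGM at 0.0842 FPKM. All 11 detected genes of the list stayed under 2-fold from the control with each treatment on the log2(FPKM + 1) scale. Only 10.3% of all detected genes were 2-fold away in at least 1 library, so a list of 11 genes lies near that share.

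In the pentose phosphate and NADPH list 11 of 12 genes were detected and 4 high. TKT, transketolase, stood at 747 FPKM, far above TALDO1 at 166, PGD at 149 and PGLS at 119 FPKM. Lipid synthesis genes stood at lower levels. All 25 cholesterol genes were detected, with a median of 33.5 FPKM, led by FDPS at 117 FPKM, and FDFT1 stood at 62.0 FPKM and the regulator SREBF2 at 52.9 FPKM. Fatty acid genes gave 17 of 18, with the desaturases FADS2 at 190.3 FPKM and SCD at 163 FPKM above ACLY at 91.1 FPKM, ELOVL1 at 73.1 FPKM and the synthase FASN at 28.3 FPKM. All 13 serine and one-carbon genes were detected, none high, led by MTHFD1 at 65.4, SHMT2 at 56.0, PSAT1 at 54.6 and TYMS at 54.2 FPKM.

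Thiol and iron genes were uneven. GSTP1, a glutathione transferase, stood at 836 FPKM with As2O3, 777 with GSK458, 736 with both drugs and 851 in the control. It varied little among the 4. The glutathione peroxidases GPX4, which repairs membrane lipids, and GPX1 stood at 296 and 201 FPKM, and the transferase GSTO1 at 107 FPKM. In contrast, the synthesis enzymes GCLM and GCLC stood at 8.56 and 7.77 FPKM and the cystine transporter SLC7A11 at 0.814 FPKM. Of that list 15 of 18 genes were detected. In the iron and haem list 14 of 16 were detected. Both ferritin chains exceeded all other members, FTH1 and the light chain FTL at 1998 FPKM, ahead of the biliverdin reductase BLVRB at 94.3 FPKM and the transferrin receptor TFRC at 57.3 FPKM. The exporter SLC40A1 stood at 1.53 FPKM and the hormone HAMP was listed at 0.

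Growth pathway genes stood far below the translation machinery. All 56 listed cytosolic ribosomal proteins were high, with a median of 1631 FPKM, and the 88 ribosomal protein symbols in the table took 22.5% of the FPKM sum. Translation factors gave 16 of 21 high genes, led after EEF1A1 by EEF1G at 2161 FPKM and EEF2 at 1444 FPKM. Against this, the 18 genes of the PI3K list had a median of 7.31 FPKM, with 16 detected and none high. The regulatory subunits PIK3R2, PIK3R3 and PIK3R1 stood at 42.8, 23.2 and 15.5 FPKM, and the phosphatase INPPL1 at 13.7 FPKM. The catalytic subunits were lower, PIK3CA at 10.2 FPKM, PIK3CD at 6.98 FPKM and PIK3CB at 5.83 FPKM, and the leukocyte form PIK3CG was listed at 0. PIK3CA stood at 11.7 FPKM with As2O3, 12.4 with GSK458, 11.8 with both drugs and 10.2 in the control, close together.

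In the AKT and mTOR list 22 of 23 genes were detected. RPS6, the ribosomal protein phosphorylated downstream of mTOR, stood at 2213 FPKM. DDIT4, a stress-induced inhibitor of mTOR complex 1, ranked 78 and stood at 1152 FPKM with As2O3, 289 with GSK458, 306 with both drugs and 1105 in the control. The control and As2O3 cultures were high, and both GSK458 cultures were low. Kinases and partners were moderate: AKT1 stood at 66.5 FPKM, the translation repressor EIF4EBP1 at 60.1 FPKM, AKT2 at 24.5 FPKM and MTOR at 13.6 FPKM. The scaffolds of the 2 mTOR complexes, RPTOR and RICTOR, stood at 8.24 and 3.55 FPKM.

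Of 25 receptor tyrosine kinases 17 were detected and none was high. FGFR1 was highest at 70.6 FPKM with As2O3, 78.2 with GSK458, 85.7 with both drugs and 81.4 in the control, with little spread. ERBB2 stood at 48.0 FPKM, FGFR2 at 46.8 FPKM and the collagen receptor DDR1 at 38.0 FPKM in the control. EGFR stood at 16.6 FPKM and MET at 21.4 FPKM, while IGF1R and INSR, the receptors of insulin-like growth factors and insulin, stood at 2.41 and 3.64 FPKM. KIT, KDR and ALK were listed at 0. Ligand genes were lower, with 10 of 19 detected and a median of 1.73 FPKM. VEGFA, an angiogenic factor, stood at 27.1 FPKM, VEGFB at 20.2 FPKM, the EGF receptor ligand EREG at 11.8 FPKM and the TAM receptor ligand GAS6 at 6.66 FPKM. HGF, the ligand of MET, and IGF1 were listed at 0.

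All 19 RAS and ERK pathway genes were detected, and 18 of them stayed within 1.5-fold of the control in all 3 treated libraries, against 67.8% of all detected genes. MAP2K2, the kinase MEK2, led at 118 FPKM, followed by the adaptors SHC1 at 66.0 FPKM and GRB2 at 52.0 FPKM. All 16 ERK output genes were detected. They were led by IER3 at 211 FPKM, the ERK phosphatase DUSP4 at 83.3 FPKM and the inhibitors SPRY1 and SPRY2 at 65.5 and 58.3 FPKM. In this list 2 of 16 stayed within 1.5-fold.

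In the MYC list 10 of 12 genes found in the table were detected. MYC stood at 45.2 FPKM, above its antagonists MXD4 at 38.1 FPKM and MXD3 at 24.1 FPKM and its partner MAX at 19.5 FPKM, and MYCN was listed at 0. Of 20 genes of the G1 phase 19 were detected. CDK4 led at 94.7 FPKM, followed by the inhibitor CDKN1A at 79.7 FPKM, CDK2 at 28.0 FPKM and the inhibitor CDKN1B at 26.6 FPKM, with cyclin D1 (CCND1) at 25.3 FPKM and CDKN2A, which encodes p16, at 5.73 FPKM. All 20 replication genes and all 20 mitotic genes were detected, against 46.2% of all symbols. PCNA, the clamp of DNA polymerase, led the replication list at 101 FPKM, with MCM7 at 71.3, TK1 at 57.0 and TYMS at 54.2 FPKM. PTTG1, securin, led the mitotic list at 221 FPKM, with CDK1 at 142, UBE2C at 90.2 and CDC20 at 80.1 FPKM. None of these 40 genes stayed within 1.5-fold of the control in all 3 treated libraries, against 67.8% of all detected genes.

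All 17 SWI/SNF subunits were detected, none high, and 16 stayed within 1.5-fold in all 3 treated libraries, against 67.8% of all detected genes. SMARCE1, SMARCA4, SMARCB1 and SMARCC1 led at 88.6, 81.4, 65.0 and 46.4 FPKM. ARID1A, the subunit most often mutated in clear cell carcinoma, stood at 7.34 FPKM with As2O3, 7.88 with GSK458, 8.59 with both drugs and 9.21 in the control, and its relative ARID1B at 13.1 FPKM in the control. Mismatch repair genes gave 7 of 8 detected and 1 listed at 0, with a median of 6.94 FPKM. MSH6, which takes part in mismatch recognition, stood at 30.3 FPKM, and PMS2 and the exonuclease EXO1 at 8.38 and 6.98 FPKM.

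Stress genes ranged from the top of the table to its floor. Among 27 NRF2 targets 24 were detected and 8 high, with a median of 37.6 FPKM. Apart from ferritin, the leading members were PRDX1, a peroxiredoxin, at 886 FPKM, and TKT. NQO1, a quinone reductase, ranked 109 and stood at 1807 FPKM with As2O3, 801 with GSK458, 2089 with both drugs and 727 in the control. It was similar with GSK458 and higher in both As2O3 cultures. HMOX1, haem oxygenase, stood at 1375 FPKM with As2O3, 47.2 with GSK458, 1949 with both drugs and 30.3 in the control, so it was moderate without drug. AKR1B10 was listed at 0. The regulator list was detected in 9 of 9 genes: SQSTM1, which binds KEAP1, stood at 95.2 FPKM, NFE2L1 at 48.0 FPKM, NFE2L2 at 43.2 FPKM, KEAP1 at 24.0 FPKM and the repressor BACH1 at 4.42 FPKM. All 16 thioredoxin and peroxiredoxin genes were detected and 10 high, led after PRDX1 by PRDX5 at 494, PRDX2 at 358 and the superoxide dismutase SOD1 at 261 FPKM.

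Metallothioneins, which bind zinc and other metals, and their regulator MTF1 formed a list of 11 genes, of which 6 were detected. MT2A led at 212 FPKM, followed by MT1X at 37.7 FPKM, MT1F at 32.9 FPKM and MT1E at 29.1 FPKM. These paralogs share sequence, and their split is uncertain. Of 11 genes that move, modify or respond to arsenic and other drugs 6 were detected, against 46.2% of all symbols, with a list median of 1.18 FPKM. They included the conjugate exporters ABCC3 and ABCC1 at 20.2 and 11.3 FPKM, the glucose transporter SLC2A1 at 15.0 FPKM, PML, a direct target of arsenic, at 10.8 FPKM and the methyltransferase AS3MT at 6.88 FPKM. The aquaglyceroporin AQP9 and the drug pump ABCB1 were listed at 0.

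Many chaperones were high without drug, against 2.91% of all symbols. In the cytosolic list 15 of 16 genes were detected and 8 high: HSPB1, a small heat shock protein, stood at 634 FPKM, HSPA8, the constitutive HSP70, at 565 FPKM, HSP90AB1 at 549 FPKM and the mitochondrial HSPD1 at 316 FPKM. The inducible twins HSPA1B and HSPA1A, near-identical in sequence, were listed at 19.8 and 0.872 FPKM, a split that is uncertain. All 18 ER chaperone genes were detected and 10 high, led by the calcium-binding chaperones CALR at 872 FPKM and HSP90B1 at 612 FPKM, the disulfide isomerase P4HB at 473 FPKM and PDIA6 at 375 FPKM. HSPA5, the ER HSP70, stood at 342 FPKM. In the ATF4 list 17 of 18 were detected, with ATF4 at 254 FPKM below DDIT4, while the induced factors DDIT3 and ATF3 stood at 9.26 and 1.35 FPKM. PSAT1 and MTHFD2 of that list stood at 54.6 and 34.4 FPKM.

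In the BCL2 family 14 of 16 genes were detected. BAX, which permeabilises mitochondria, stood at 125 FPKM, BAD at 60.5 FPKM and the survival proteins MCL1 and BCL2L1 at 56.9 and 53.4 FPKM, all far above BCL2 at 2.48 FPKM. BCL2A1 and HRK were listed at 0.

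Inflammatory genes of the NF-kB list were detected in 16 of 19 genes found. NFKBIA, the inhibitor of NF-kB, stood at 164 FPKM, the mitochondrial superoxide dismutase SOD2 at 161 FPKM and the chemokines CXCL5 and CXCL1 at 38.0 and 37.5 FPKM, with IL6 at 32.9 FPKM and TNF at 16.2 FPKM. Interferon genes were lower, 12 of 17 detected with a median of 3.86 FPKM, led by ISG15 at 44.9 FPKM, with IFI6 at 19.2 and IRF9 at 13.8 FPKM. HLA class I presentation gave 11 of 13 detected. B2M, the light chain of class I molecules, stood at 397 FPKM, HLA-E at 79.2 FPKM and HLA-C at 59.1 FPKM, and values of the polymorphic HLA paralogs are uncertain. NLRC5, the class I transactivator, was at 0.165 FPKM.

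Hypoxia genes gave 14 of 16 detected. HIF1A, the oxygen-regulated factor, stood at 299 FPKM, BNIP3 at 114 FPKM, P4HA1 at 58.0 FPKM and EPAS1, which encodes HIF-2 alpha, at 54.2 FPKM, whereas the hypoxia marker CA9 was at 0.0532 FPKM. Immediate early genes, transcription factors and others induced within minutes of a stimulus, gave 14 of 17 detected. IER3, JUND, KLF6 and FOSL2 led at 211, 119.9, 101 and 89.3 FPKM, while FOS and EGR1 stood at 2.13 and 3.38 FPKM and FOSB at 0.124 FPKM. All 25 lysosome and autophagy genes found were detected and 10 high, with PSAP, the precursor of sphingolipid activators, at 827 FPKM, GABARAP at 288 FPKM, GRN at 235 FPKM and the protease CTSD at 226 FPKM.

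**Figure D4:**
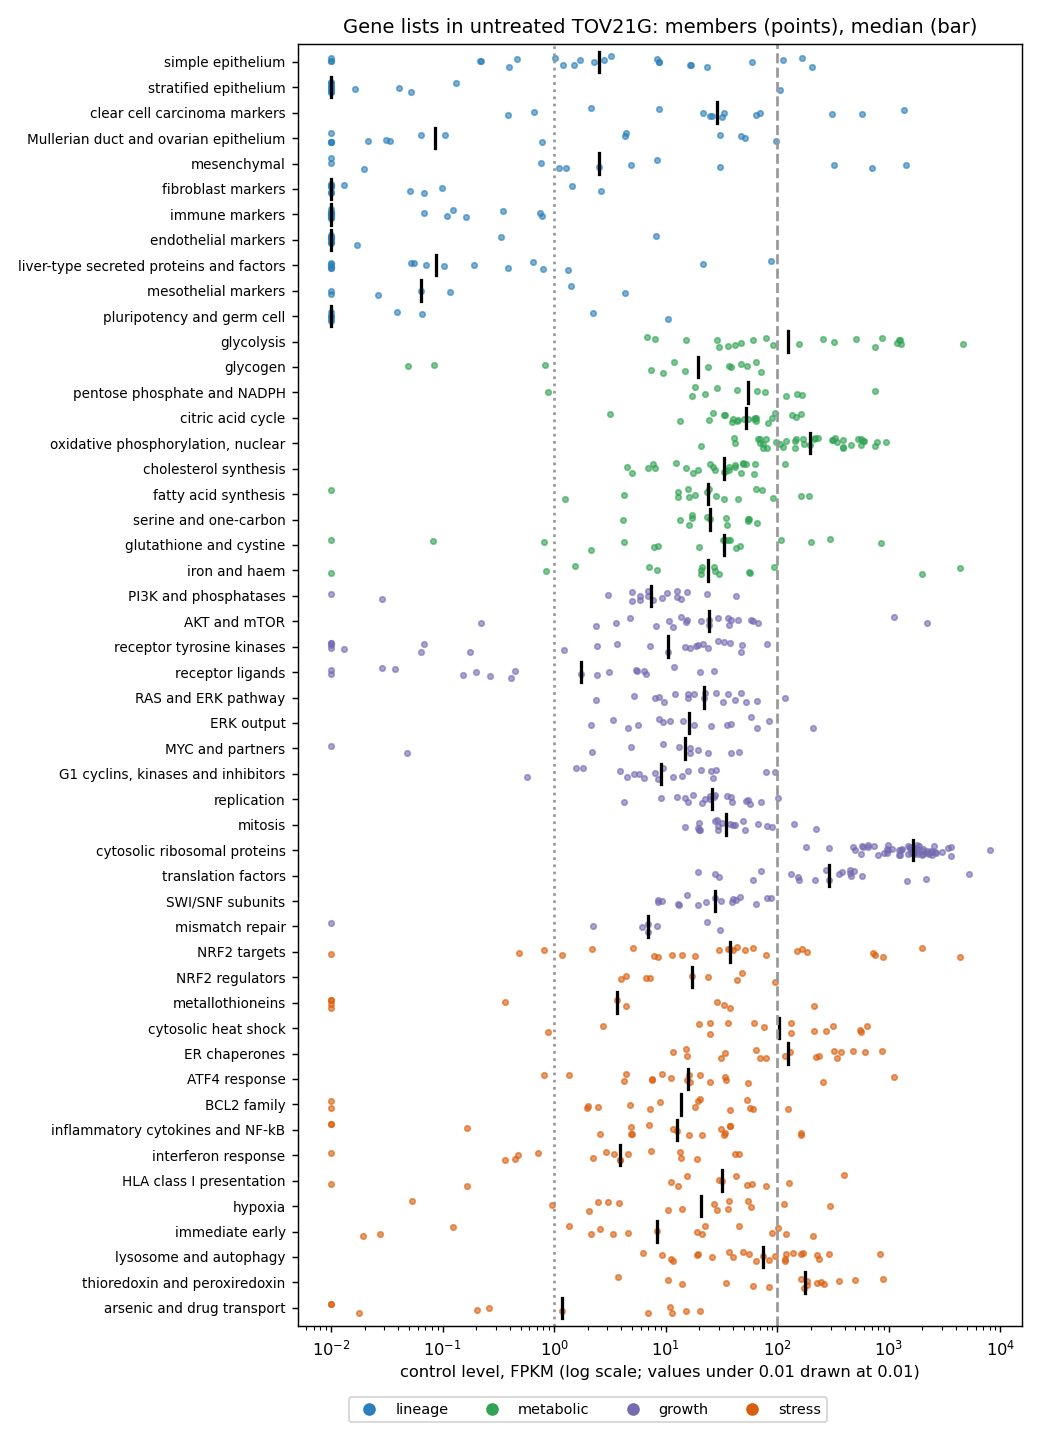
Control level in FPKM (x axis, log scale, values under 0.01 drawn at 0.01) of the members of the gene lists, 1 point per gene, with the list median as a black bar; dotted and dashed lines mark 1 and 100 FPKM. Medians lie at 1631 FPKM for ribosomal proteins, 198 FPKM for oxidative phosphorylation and 7.31 FPKM for the PI3K list.

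Most high genes stayed near the control level in the treated cultures. Differences were taken on the log2(FPKM + 1) scale, treated minus control, and a gene was called steady where it stayed within 1.5-fold in all 3. Of the 763 high genes 467 were steady (61.2%), against 67.8% of the 12108 detected genes outside small RNAs. A further 97 high genes (12.7%) were at least 2-fold from the control in 1 or more treated libraries, against 10.3% of detected genes, and 199 lay between. The 1 FPKM added before the logarithm narrows differences of genes near 1 FPKM and hardly those of high genes. The shares of high and of detected genes are therefore not fully alike. The 3 differences share the control library, so a control value that is off moves all of them. For As2O3 the median difference was −0.03 in high genes and 0.00 in all detected genes. For GSK458 it was −0.12 and −0.02, and for both drugs −0.20 and −0.03, so the median shift was larger among high genes. Steadiness was less common at the very top: 39 of the 81 genes at 1000 FPKM or more were steady (48.1%), against 62.8% of those from 100 to under 1000 FPKM. Of the 20 highest genes 11 were steady.

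By direction, 15 high genes were at least 2-fold higher and 5 at least 2-fold lower with As2O3 (1.97% and 0.655%, against 1.74% and 1.41% of detected genes). Rescaled to a sum of 1000000, the As2O3 split was 11 higher and 9 lower among high genes, and it turned to 192 higher and 306 lower among detected genes, against 211 and 171 as deposited. With GSK458 14 were higher and 44 lower (1.83% and 5.77%, against 1.87% and 3.91%). With both drugs 17 were higher and 60 lower (2.23% and 7.86%, against 2.63% and 4.47%).

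The 10 high genes with the smallest largest difference, chosen by that value, have varied roles. QPRT, an enzyme of NAD synthesis, came first, at 136 FPKM with As2O3, 127 with GSK458, 129 with both drugs and 132 in the control. SRP14, a protein of the signal recognition particle, stood at 195 FPKM with As2O3, 201 with GSK458, 192 with both drugs and 201 in the control. NUTF2, which returns the GTPase RAN to the nucleus, stood at 159.7 FPKM with As2O3, 161 with GSK458, 154 with both drugs and 162 in the control. None of these libraries stood apart for any of the 3 genes. PSMB4, a proteasome subunit, stood at 274 FPKM with As2O3, 272 with GSK458, 263 with both drugs and 279 in the control. CANX, the ER lectin calnexin, stood at 208 FPKM with As2O3, 229 with GSK458, 231 with both drugs and 221 in the control. NOP10, SDCBP, PTOV1, C19orf53 and HNRNPH1 completed the list, with control levels of 245, 109.7, 131, 107 and 134 FPKM and largest differences between 0.08 and 0.09 on the log2 scale. ACTB and GAPDH, often used as reference genes, were not among them. ACTB stood at 3871 FPKM with As2O3, 2429.6 with GSK458, 2399.6 with both drugs and 4486 in the control, and GAPDH at 5109 FPKM with As2O3, 3039 with GSK458, 3359 with both drugs and 4595 in the control. For both, the As2O3 culture was near the control and both GSK458 cultures were lower. TMSB10 was steady at 9040.0 FPKM with As2O3, 7585 with GSK458, 6712 with both drugs and 8231 in the control, but TMSB4X was not, at 6267 FPKM with As2O3, 3883 with GSK458, 2867 with both drugs and 6319.8 in the control.

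The 10 high genes farthest from the control level, chosen by that value, were of several kinds. CDK1, the mitotic kinase, stood at 149 FPKM with As2O3, 15.4 with GSK458, 25.2 with both drugs and 142 in the control. TUBA1B, an alpha tubulin with near-identical relatives, stood at 594 FPKM with As2O3, 82.9 with GSK458, 138 with both drugs and 535 in the control. H2AFZ, a histone variant, stood at 209 FPKM with As2O3, 74.2 with GSK458, 92.2 with both drugs and 329 in the control. All these were lowest with GSK458. PCNA, SCD and CSRP2, a LIM protein, were also low in both GSK458 cultures, with largest differences of 1.95, 2.14 and 2.03 on the log2 scale. SAT1, which acetylates polyamines, stood at 905 FPKM with As2O3, 319 with GSK458, 485 with both drugs and 134 in the control, higher in each treated culture than in the control. GAS5, a host gene of small nucleolar RNAs, stood at 248 FPKM with As2O3, 726 with GSK458, 553 with both drugs and 158 in the control. IL18, an inflammasome cytokine, stood at 176 FPKM with As2O3, 438 with GSK458, 346 with both drugs and 106 in the control. GAS5 and IL18 were highest with GSK458. FTH1 stood at 15008 FPKM with As2O3, 8171 with GSK458, 16546 with both drugs and 4300 in the control, lowest in the control.

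**Figure D5:**
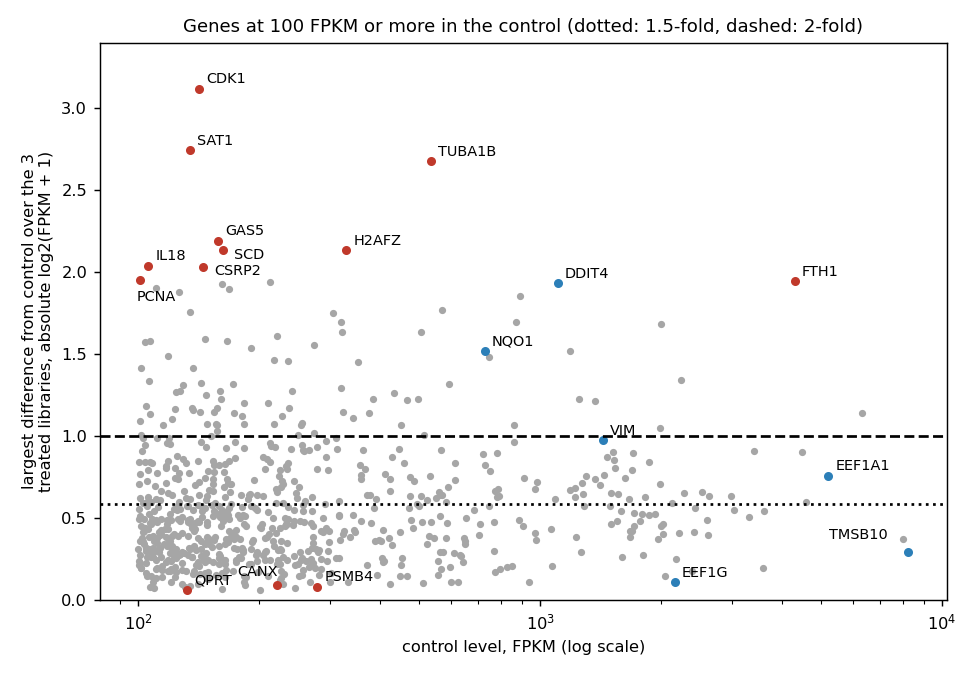
Largest absolute difference from the control over the 3 treated libraries, on the log2(FPKM + 1) scale (y axis), against control FPKM (x axis, log scale), 1 point per high gene (red: named among the nearest or farthest; blue: other named genes); dotted and dashed lines mark 1.5-fold and 2-fold. CDK1 is farthest at 3.12 and QPRT nearest at 0.06; 467 of 763 genes lie under the dotted line.

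The steady share of the high members can be read against the 61.2% of all high genes. Of the 78 high ribosomal protein symbols 44 were steady (56.4%), against 61.8% of the other 685 high genes. Of the 56 on the list of cytosolic ribosomal proteins 38 were steady and none was 2-fold apart, but RPL21, outside that list, stood at 204 FPKM with As2O3, 181 with GSK458, 431 with both drugs and 172 in the control. All 88 ribosomal protein symbols together took 22.1% of the FPKM sum with As2O3, 30.2% with GSK458, 27.1% with both drugs and 22.5% in the control. Of the 28 high oxidative phosphorylation genes 14 were steady, of the 11 high glycolytic genes 3, and of the 10 high lysosome and autophagy genes 8. The cytosolic chaperone list, which includes the mitochondrial HSPD1, had 5 of 8 high genes steady, and the ER chaperones had 2 of 10. Of the 8 high NRF2 targets 2 were steady. None of the 3 high clear cell markers was steady, while KRT8 and KRT18 both were.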

How the data were processed

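Stranded poly(A) libraries of 4 TOV21G cultures, 1 per group, were compared in one table. The authors deposited FPKM per gene symbol for each library. Per the submitters' processing notes the build was hg19 and the tools included Cuffdiff 2.2.1, TopHat2 2.1.1, SAMtools 0.1.18 and Bowtie2 2.2.8. The sources used here do not give their settings. Whether counting used strand is not given either, so overlapping antisense genes cannot be told apart.

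Ranks, shares, list summaries and differences on the log2(FPKM + 1) scale were computed in Python 3.11.15 with pandas 2.3.3 and checked on simulated data. Genes at 1 FPKM or more were called detected and those at 100 or more high. Small RNA symbols (2261, recognised by name) were left out of ranks. With 1 library per group no test, error or counting interval of expression levels was possible, and depth is unknown. Promoters came from RefSeq GRCh38.p14, matched by symbol. Protein features and the KRT18, FTH1, CDH1 and SDCBP promoters were not analysed here.

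The members and the 52 gene lists were chosen with earlier results of these data known. The genes named are the 20 highest, the 4 highest of most lists (3 for ribosomal proteins, translation factors and oxidative phosphorylation), the 10 high genes nearest to and the 10 farthest from the control, and 19 genes of interest. Some of these, and 1 list, are not reported here. Others were picked after their values were seen. Of the lists, 1 (mitochondrial transcripts) had 0 of its 26 symbols in the table.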

Additional observations from a re-analysis of the deposited data

How the results depend on the processing

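No paired analysis was possible because each group has 1 library. Of 31 alternative values for the main results, 22 were counted as unchanged. The limit was 1.5 times the value given, but for TATAAA shares it was the 95% interval of the share over promoters. Among these, detected genes numbered 12138, 9019 at 5 FPKM and 16191 above 0, and steady high genes numbered 666 at a 2-fold limit. Steady high genes numbered 467, and 217 where the limit was narrowed to 0.32 on the log2 scale, against 0.58; 1058 of 1658 genes (63.8%) were steady at 50 FPKM or more and 80 of 156 (51.3%) at 500 FPKM or more. High genes that left the control level numbered 97 at 2-fold and 296 at 1.5-fold. TATAAA letters were in 8.62% of promoters of high genes, 5.83% in a window from 100 bases before to 50 after the start and 5.83% in the highest 20% of detected genes. In genes listed at 0 the share was 19.4%, and 12.6% in that window, while the lowest 20% of detected genes gave 5.22% and a median CpG ratio of 0.78, against 0.27; these rank groups hold other genes by construction. Rescaling each library to a sum of 1000000 moved the median difference of detected genes with GSK458 to −0.13, against −0.02 as deposited. Among the 51 lists, counts of detected members moved in 4 at 0.1 FPKM and in 7 at 5 FPKM. On rescaling they moved in 2: immune markers gave 2 of 16, against 0, and liver-type genes 5 of 16, against 3. Without replicates or read counts, the error of low values and of small differences is unknown.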

Other observations

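Genes outside the lists, chosen after their values were seen, add to the picture of the untreated culture. Over all symbols 46.2% were detected and 2.91% were high. The detected counts of integrin chains and S100 genes lie near that share, and that of claudins lies below it. Of 12 laminin chains, which build the basement membrane, 8 were detected, 3 were high and 4 stood under 1 FPKM. LAMC1 and LAMB1 stood at 371 and 211 FPKM, and the collagen chains COL18A1, COL4A2 and COL4A1 at 243, 154 and 123 FPKM. Of 26 integrin chains, which form matrix receptors, 13 were detected and 13 stood under 1 FPKM, and ITGB1 was the only high one at 651 FPKM. Of 24 claudins 9 were detected, and CLDN1, a tight junction protein, was the only high one at 205 FPKM. Of 19 genes of the S100 family 9 were detected and 6 high, led by S100A11 and S100A6 at 1087 and 1068 FPKM. Of 39 HOX genes 25 were detected, led by HOXC10 at 83.6 FPKM and HOXA5 at 52.1 FPKM.

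Several high genes are better known from other tissues. COMP, a matrix protein of cartilage, stood at 584 FPKM with As2O3, 527 with GSK458, 403 with both drugs and 529.8 in the control. MAL, a lipid raft protein of polarised epithelia, stood at 301 FPKM with As2O3, 297 with GSK458, 246 with both drugs and 891 in the control, highest in the control. CPS1, the urea cycle enzyme of liver, stood at 228 FPKM with As2O3, 95.9 with GSK458, 92.2 with both drugs and 274 in the control. ALDH1A1, which makes retinoic acid, stood at 217 FPKM with As2O3, 287 with GSK458, 263 with both drugs and 294 in the control. RELN, a secreted protein best known in brain development, stood at 117 FPKM, and TNNT1, a troponin of slow muscle, at 209 FPKM in the control. IGFBP7, a secreted binding protein, stood at 1577 FPKM with As2O3, 2286 with GSK458, 1979 with both drugs and 1368 in the control. PRAME, a cancer-testis antigen, stood at 44.9 FPKM in the control.

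Among symbols other than small RNAs, 1 gene was listed with a 0 in the control but reached 10 FPKM or more in a treated culture. It was SNHG25, which hosts a small nucleolar RNA, at 39.7 FPKM with As2O3, 52.2 with GSK458, 44.6 with both drugs and 0 in the control.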
